A study of Mus musculus with 12 samples.

Results

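Transcripts of 8 genes were followed in hematopoietic stem cells: the transcription factors Foxo1, Foxo3 and Foxo4, the alpha-arrestins Txnip and Arrdc4, the glucose-responsive factor Mlxip (also called MondoA), and the glucose transporters Slc2a1 (GLUT1) and Slc2a3 (GLUT3). They were chosen by name, as a route from growth-factor and glucose sensing to glucose uptake, and make up 8 of the 18546 genes measured. All 8 passed the filter on low values, which kept 15478 genes with at least 1 RPKM (reads scaled to gene length and to library size) in at least 3 libraries. The RNA came from SLAM hematopoietic stem cells, cells that carry CD150, Sca1 and cKit but neither CD48 nor lineage markers, sorted out of the marrow of mice of the C57BL/6 strain at an age of 10 to 12 weeks.

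There were 4 genotypes with 3 libraries each. They were wild type, NrasG12D/+ (1 copy of an activating Nras allele, here called Nras mutants), Tet2+/- (loss of 1 copy of the DNA demethylase gene Tet2, here Tet2 mutants), and NrasG12D/+;Tet2+/- (both alleles, here compound mutants). All were on the same strain, and no treatment was named. Sex was read from sex-linked genes, which gave 5 male and 7 female libraries. Replicate 1 of each genotype and Tet2 replicate 3 were male, so sex was not balanced between Tet2 mutants and the other genotypes. How the Nras allele was switched on, and whether animals were pooled, is not given in the sources used here, so p-values measure the spread between these libraries. Ribosomal and mitochondrial RNA had been removed before library preparation.

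FOXO factors are held in the cytoplasm when AKT phosphorylates them, and enter the nucleus when growth-factor signalling is low, where they drive genes for cell-cycle arrest and for defence against reactive oxygen. Stem cells of the marrow need them to stay quiescent. TXNIP binds and inhibits thioredoxin and takes glucose transporters off the cell surface. MondoA, in a complex with its partner MLX, turns on Txnip and Arrdc4 when glucose phosphates build up in the cell, which closes a feedback loop on uptake.

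The promoters of Txnip and Arrdc4 are shown because they are the members whose upstream bases hold a searched sequence. RefSeq (GRCm38.p6, the assembly also called mm10) gave promoters for 6 of the 8 members, Foxo4 and Slc2a3 not among them. The lines below give the 250 bases before each start site, 5′ to 3′ on the gene's own strand, from chr3:96557707-96557956 (plus strand) for Txnip and chr7:68749239-68749488 (minus strand) for Arrdc4. Capitals mark matches.
Txnip upstream: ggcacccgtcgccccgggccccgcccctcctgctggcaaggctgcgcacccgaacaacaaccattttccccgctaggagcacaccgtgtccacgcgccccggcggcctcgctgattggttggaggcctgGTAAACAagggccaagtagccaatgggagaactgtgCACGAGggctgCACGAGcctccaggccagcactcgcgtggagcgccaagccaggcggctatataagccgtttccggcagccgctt
Arrdc4 upstream: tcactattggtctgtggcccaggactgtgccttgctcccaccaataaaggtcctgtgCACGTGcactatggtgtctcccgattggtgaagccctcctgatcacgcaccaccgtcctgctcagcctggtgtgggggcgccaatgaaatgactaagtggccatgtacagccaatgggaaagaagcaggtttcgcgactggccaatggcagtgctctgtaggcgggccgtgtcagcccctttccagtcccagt
A set of 3 sequences was searched on both strands in those bases: GTAAACA, the core that FOXO factors recognise; CACGTG, the E-box; and a pair of CACGNG with 5 bases between, the paired half-sites of a carbohydrate response element, which MondoA and its partner bind. Txnip held GTAAACA from base -121 and the paired half-sites from base -85, counted back from the start site. Of 32851 promoters of the same length, 3.17% held GTAAACA, while 15 of them (0.0457%), belonging to 14 genes, held the paired half-sites. Arrdc4 held CACGTG from base -193, a sequence found in 6.02% of promoters. Foxo1, Foxo3, Mlxip and Slc2a1 held none of the 3 in these bases.

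The members differed widely in abundance. Their levels were compared per kilobase of merged exons at equal library size, because the deposited RPKM divided 6 of the 8 genes by the summed length of all their annotated transcripts, which makes genes with many transcripts look low. In wild type, Txnip was by far the most abundant at 273 ± 28.6 (SD, n = 3) on this scale, in the 99.7th percentile of genes. Foxo3 followed at 53.4 ± 2.38 and was the leading FOXO transcript, against 13.4 ± 6.10 for Foxo4 and 5.19 ± 0.640 for Foxo1. Mlxip stood at 22.4 ± 3.46, Slc2a3 at 20 ± 6.72, Arrdc4 at 13.1 ± 1.14 and Slc2a1 at 11.2 ± 2.53.

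The wild-type libraries of Txnip (244 to 301) and of Foxo3 (50.6 to 55.1) overlapped with no other member. Mlxip (18.6 to 25.3) overlapped with Slc2a3 (12.2 to 24.2), and Slc2a3 with Foxo4 (6.45 to 18.0), Arrdc4 (12.1 to 14.3) and Slc2a1 (8.32 to 13). The place of Slc2a3 in this middle group was therefore not set beyond its spread. Mlxip lay above every library of Foxo4, Arrdc4 and Slc2a1, which overlapped with each other. Foxo1 (4.61 to 5.88) lay below all libraries of the others. On the deposited scale the order was the same except that Arrdc4 (9.63 RPKM) stood above Foxo4 (8.41 RPKM).

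**Figure D1:**
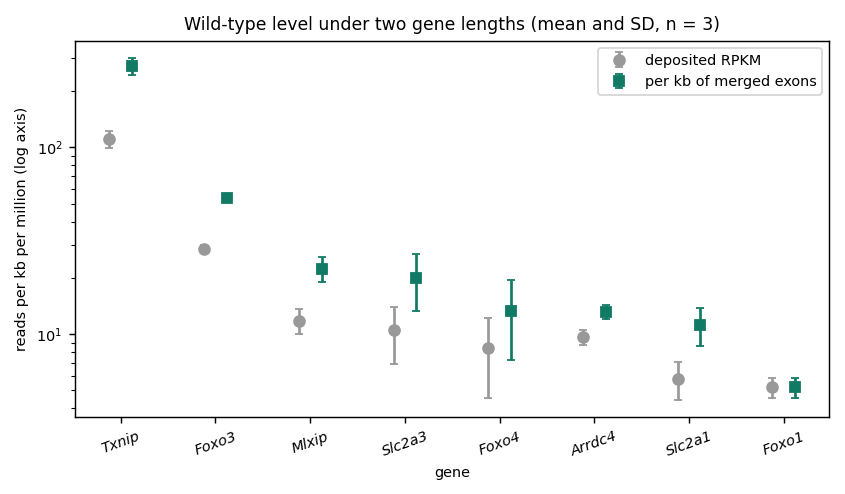
Mean level of each member in the 3 wild-type libraries, with SD bars, on a log axis in reads per length and library size. Grey circles are the deposited RPKM and green squares the values per kilobase of merged exons. Txnip is highest on both scales (110 and 273), and Foxo1, with 1 annotated transcript, has the same value on both.

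Txnip was the only member higher in all 9 mutant libraries than in all 3 wild-type libraries, as were 0.504% of genes (78 of 15478). The gap was narrow, with 127 RPKM in the lowest mutant library and 122 RPKM in the highest of wild type. Across the comparisons with limma (1 mean per genotype over 12 libraries, Benjamini-Hochberg adjustment over 15478 genes), however, no member passed the adjusted threshold of 0.05. Against wild type, 5 members had positive and 3 negative log2 differences in each mutant genotype, with medians over the 8 of 0.11 (Nras), 0.25 (Tet2) and 0.16 (compound), beside 0.01, 0.04 and 0.02 over all genes tested. The 3 comparisons share their wild-type libraries and are not independent of each other. Few genes of any kind passed: 0.00646% (1 gene) in each of the 3 comparisons with wild type, so 0 of 8 members lies at the background. In bulk RNA such as this, fewer cells of a type and less RNA per cell cannot be told apart.

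**Figure D2:**
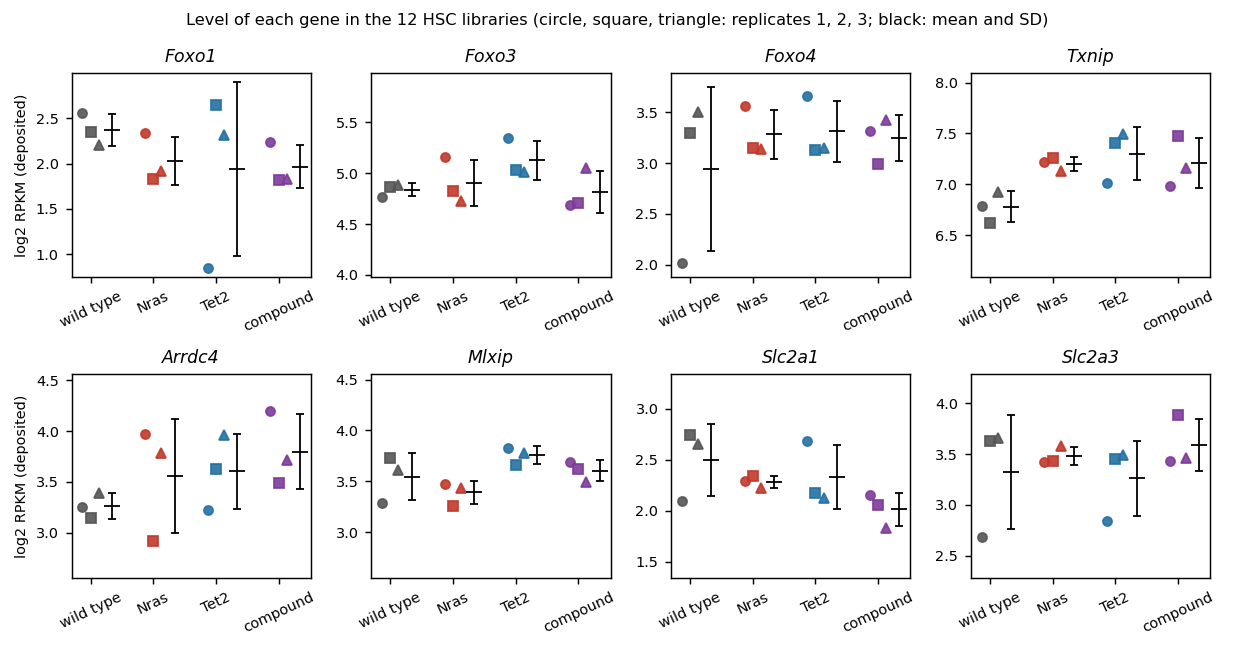
Deposited log2 RPKM of each member in every library, by genotype. Circles, squares and triangles are replicates 1, 2 and 3, and black bars give the mean and SD. Every mutant library lies above the wild-type libraries for Txnip; single circles lie far from their group for Foxo1 (Tet2), Foxo4 (wild type) and Slc2a3 (wild type and Tet2).

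Foxo1 (ENSMUSG00000044167, chromosome 3, 52268336 to 52353221, plus strand; coordinates here and below are mm10) is the member most studied as a target of insulin signalling. It stood at 5.88, 5.07 and 4.61 RPKM in wild-type replicates 1, 2 and 3, and at 5.04, 3.55 and 3.79 in Nras mutants. Tet2 mutants gave 1.8, 6.26 and 5.0 RPKM, and compound mutants 4.72, 3.53 and 3.56. Nras and compound means (4.13 ± 0.800 and 3.94 ± 0.674, SD, n = 3) lay below the wild-type mean (5.19 ± 0.640), but replicate 1 of each overlapped with wild type. The log2 difference from wild type was -0.34 ± 0.41 (SE) in Nras and -0.40 ± 0.41 in compound mutants (limma, adjusted p = 0.923 and 0.868). In Tet2 mutants it was -0.43, with a 95% interval of -1.34 to 0.48, and 0.12 without Tet2 replicate 1, the library with 1.8 RPKM.

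Foxo3 (ENSMUSG00000048756, chromosome 10, 42181841 to 42276755, minus strand) encodes the FOXO factor best known for keeping stem cells quiescent. Wild-type libraries were tightly grouped at 27.2, 29.2 and 29.6 RPKM. Nras mutants stood at 35.7, 28.3 and 26.4, Tet2 mutants at 40.8, 32.6 and 32.2, and compound mutants at 25.8, 26.1 and 33.1 RPKM. All 3 Tet2 libraries lay above all 3 of wild type, a pattern shown by 5.24% of genes in that comparison. The Tet2 difference was 0.29 ± 0.15 (log2, SE; 95% interval -0.04 to 0.62; limma, adjusted p = 1), and 0.18 without Tet2 replicate 1. Compound mutants differed from Tet2 mutants by -0.31 (interval -0.65 to 0.02; adjusted p = 0.921) and from wild type by -0.02. Among the genes tested, Foxo3 varied little between libraries of a genotype, with a residual SD of 0.183 (log2) in the 9.08th percentile. Its mean level was in the 93.8th percentile, and it was not compared with genes of like level alone.

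Foxo4 (ENSMUSG00000042903, chromosome X, 101254528 to 101260873, plus strand) is the X-linked member of the family. Its wild-type libraries stood at 4.06, 9.84 and 11.3 RPKM, so replicate 1 had less than the other two by far. Nras mutants gave 11.8, 8.85 and 8.82, Tet2 mutants 12.6, 8.74 and 8.87, and compound mutants 9.93, 7.94 and 10.8 RPKM. All mutant libraries fell within the span of wild-type values or just above it. The log2 differences of 0.34, 0.37 and 0.30 (SE 0.35; limma, adjusted p = 0.908, 1 and 0.882) rested on that 1 library: without it they were -0.12, -0.09 and -0.16. Wild-type replicate 1 was also the library with the most genes at 0 reads, 3824 where the range over libraries began at 1000.

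Txnip (ENSMUSG00000038393, chromosome 3, 96557957 to 96561883, plus strand) lies 6.5 Mb from Nras on the same chromosome. Wild-type libraries stood at 110, 98.7 and 122 RPKM. Nras mutants gave 149, 153 and 140 RPKM, Tet2 mutants 129, 169 and 180, and compound mutants 127, 178 and 143. The lowest mutant library (127) was above the highest wild-type library (122), a separation of all 9 from all 3 shown by 0.504% of genes (78 of 15478). Taken genotype by genotype, the libraries also did not overlap in any of the 3 comparisons, as for 5.27% of genes higher in Nras, 5.24% in Tet2 and 6.09% in compound mutants.

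The mean Txnip level was 110 ± 11.5 RPKM in wild type, 147 ± 6.90 in Nras, 160 ± 26.9 in Tet2 and 149 ± 26.0 in compound mutants (SD, n = 3). The fitted difference was 0.42 ± 0.16 (log2, SE; 1.34-fold, 95% interval 1.05 to 1.71) in Nras mutants. It was 0.52 ± 0.16 (1.44-fold, 1.13 to 1.83) for Tet2 and 0.43 ± 0.16 (1.35-fold, 1.06 to 1.72) for compound mutants. The limma p-values were 0.0223, 0.00747 and 0.0212 unadjusted, and adjusted p = 0.870, 1 and 0.754. Txnip was the 1 member of 8 with an unadjusted p under 0.05 and a positive difference in each, against 3.19%, 1.82% and 3.36% of all genes. By unadjusted p it ranked 378th of 15478 in Nras, 51st in Tet2 and 423rd in compound mutants. The limma p rested on single libraries in 2 of these comparisons: unadjusted it was 0.0809, 0.0501 and 0.0590 for Nras without wild-type replicate 2, Nras replicate 1 or Nras replicate 2. For compound mutants it was 0.0774 when wild-type replicate 2 was left out and 0.0931 when compound replicate 2 was.

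**Figure D3:**
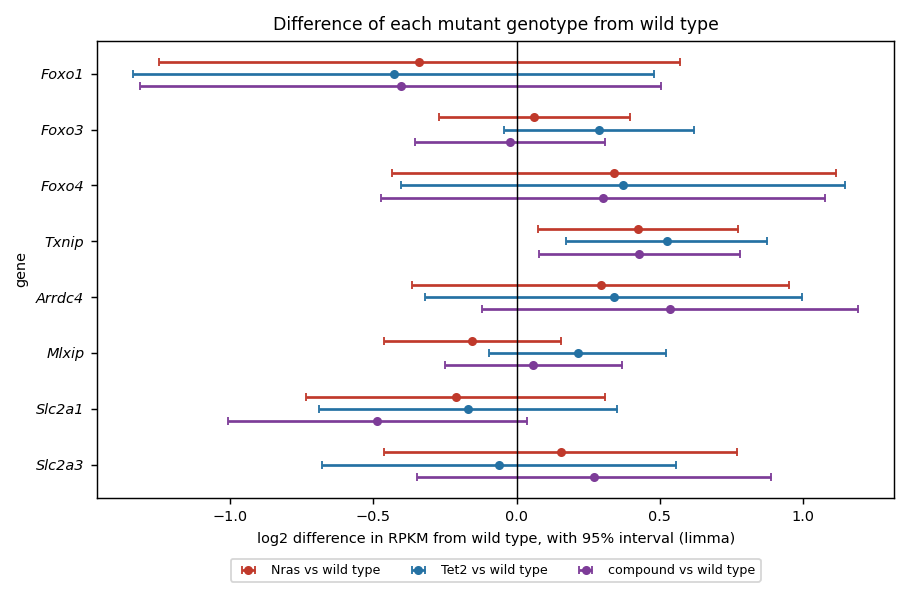
Fitted log2 difference of each mutant genotype from wild type for the 8 members, with 95% intervals from limma (red Nras, blue Tet2, purple compound). Only the 3 intervals of Txnip lie wholly on 1 side of 0, and the intervals of Foxo1 and Foxo4 are the widest.

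With both alleles, mean Txnip (149 RPKM) lay between the means of the single mutants (147 and 160 RPKM). Compound mutants differed from Nras mutants by 0.00 (95% interval -0.35 to 0.36) and from Tet2 mutants by -0.10 (-0.45 to 0.25). The interaction, the compound difference from wild type less the sum of those of the single mutants, was -0.52 ± 0.22 (SE; interval -1.02 to -0.02; limma, unadjusted p = 0.0415, adjusted p = 0.996), and it did not pass. Txnip was the only member with an unadjusted p under 0.05 there, where 1.95% of genes were lower at that level. Averaged over the other gene, the Tet2 allele went with a difference of 0.26 (0.02 to 0.51; unadjusted p = 0.0385, adjusted p = 0.963) and the Nras allele with 0.16 (-0.08 to 0.41; adjusted p = 0.823). In the Tet2 allele comparison 1.87% of genes were higher at an unadjusted p under 0.05.

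No member passed in those 5 comparisons either. The share of all genes that passed was 0.0% for compound against Nras mutants, 0.00646% for compound against Tet2 mutants, 0.0129% for the interaction, 0.0323% for the Nras allele and 0.0% for the Tet2 allele. Where limma called 0 genes, 625 had an unadjusted p under 0.05 for compound against Nras and 589 for the Tet2 allele, and limma's voom on recovered reads also called 0.

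Arrdc4 (ENSMUSG00000042659, chromosome 7, 68736995 to 68749241, minus strand) is the closest relative of Txnip that MondoA also drives. Wild-type libraries stood at 9.55, 8.84 and 10.5 RPKM. Nras mutants were split, at 15.7, 7.55 and 13.8, and Tet2 mutants ran from 9.34 over 12.4 to 15.5 RPKM. Compound mutants, at 18.4, 11.2 and 13.1, lay above every wild-type library, as 6.09% of genes did. The log2 difference was 0.29 ± 0.30 (SE) in Nras, 0.34 ± 0.30 in Tet2 and 0.53 ± 0.30 in compound mutants (limma, adjusted p = 0.907, 1 and 0.797; the last interval was -0.12 to 1.19). Single libraries moved these values: the Nras difference was 0.087, 0.61 or 0.18 when Nras replicate 1, 2 or 3 was left out. The Tet2 difference was 0.53 without Tet2 replicate 1 and 0.16 without Tet2 replicate 3, and the compound difference 0.33 without compound replicate 1. The Arrdc4 differences had the sign of those of Txnip in each genotype, with a residual SD of 0.388 (log2) against 0.196.

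Mlxip (ENSMUSG00000038342, chromosome 5, 123394798 to 123457932, plus strand), the glucose sensor of the loop, was the steadiest member. Its residual SD of 0.145 (log2) was in the 4.37th percentile of genes of all levels, and its mean level in the 79.3rd. Wild-type libraries held 9.76, 13.3 and 12.3 RPKM, and Nras mutants 11.1, 9.58 and 10.8. Tet2 mutants gave 14.2, 12.7 and 13.7 and compound mutants 12.9, 12.3 and 11.3 RPKM. Differences from wild type were -0.15, 0.21 and 0.06 (log2, SE 0.14; limma, adjusted p = 0.893, 1 and 0.959), and without wild-type replicate 1 they were -0.28, 0.085 and -0.071. The Nras difference was also -0.061 when wild-type replicate 2 was left out, and -0.090 when Nras replicate 2 was. The compound difference ran from -0.071 to 0.15 as single libraries were left out. The Tet2 allele went with 0.21 (interval -0.00 to 0.43; adjusted p = 0.963). In Nras mutants, Txnip stood above wild type in every library and Mlxip within or below its span.

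The related factor Mlxipl (ChREBP), which serves the same role in liver, had 0 to 82 reads per library with a median at 0 and was below the filter. Mlx, the shared partner, ran from 0 to 1089 reads with a median of 2.05 RPKM on the deposited scale. Its highest library stood at 4.06 RPKM as deposited and at 16.0 per kilobase of merged exons. Txn1, the thioredoxin that TXNIP binds, ran from 6.96 to 28.9 on both scales.

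Slc2a1 (ENSMUSG00000028645, chromosome 4, 119108711 to 119137983, plus strand) encodes GLUT1, the widespread basal glucose transporter. Wild-type libraries stood at 4.27, 6.68 and 6.31 RPKM and Nras mutants at 4.89, 5.06 and 4.67. Tet2 mutants gave 6.44, 4.50 and 4.36 and compound mutants 4.44, 4.15 and 3.56 RPKM. The compound mean was the lowest, 4.05 ± 0.451 against 5.75 ± 1.30 in wild type (SD, n = 3), with an overlap through wild-type replicate 1. The compound difference was -0.49 ± 0.23 (log2, SE; 0.714-fold, 95% interval 0.498 to 1.02; limma, adjusted p = 0.767), and -0.69 without that replicate. The Nras and Tet2 differences were -0.21 and -0.17 (adjusted p = 0.915 and 1). Without wild-type replicate 1, 2 or 3 the Nras difference was -0.41, -0.091 or -0.13, and the Tet2 difference -0.37, -0.048 or -0.090. Without Tet2 replicate 1, 2 or 3 the Tet2 difference was -0.35, -0.091 or -0.068.

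Slc2a3 (ENSMUSG00000003153, chromosome 6, 122727809 to 122801640, minus strand) encodes GLUT3, a transporter of high affinity. It stood at 6.41, 12.3 and 12.7 RPKM in wild-type libraries, while Nras mutants gave 10.7, 10.8 and 12.0. Tet2 mutants gave 7.16, 11 and 11.2 and compound mutants 10.8, 14.8 and 11 RPKM. Replicate 1 was low in both wild type and Tet2, and through wild-type replicate 1 the genotypes overlapped. Wild-type replicates 2 and 3 lay above every Nras library and above Tet2 replicates 2 and 3, and within the span of compound mutants. Differences were 0.15, -0.06 and 0.27 (log2, SE 0.28; limma, adjusted p = 0.954, 1 and 0.868). Without wild-type replicate 1 the Nras difference was -0.17, the Tet2 difference -0.38 and the compound difference -0.05. Without Tet2 replicate 1 the Tet2 difference was 0.15. As fitted over all libraries, Slc2a1 and Slc2a3 had opposite signs in Nras and compound mutants, and neither passed.

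The members did not move as 1 group from library to library. Over the 12 libraries, the 28 pairs of members had Pearson r between -0.53 and 0.54, and with 100000 permutations the smallest adjusted p was 0.583 (Spearman 0.936). Txnip and Arrdc4 gave r = 0.34 and Spearman rho = 0.31 (permutation p = 0.271 and 0.331). With genotype means subtracted r was 0.01, and without the 2 libraries farthest from the Txnip median it was 0.04, so the relation rested on those wild-type libraries. Arrdc4 ranked 2088th of 15477 genes by likeness to Txnip. Txnip and Mlxip gave r = 0.05.

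The lowest r was between Txnip and Slc2a1, r = -0.53 and rho = -0.42 (permutation p = 0.0757 and 0.175, adjusted 0.583 and 0.936). It stood at -0.45 within genotypes and -0.54 without the 2 libraries farthest from the median. The highest r was between Foxo3 and Foxo4, 0.54 (rho = 0.62; permutation p = 0.0735 and 0.0382, adjusted 0.583 and 0.936), and 0.32 without 2 libraries. Foxo4 and Mlxip, at r = 0.51, fell to -0.07 without wild-type replicate 1 and Tet2 replicate 1.

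**Figure D4:**
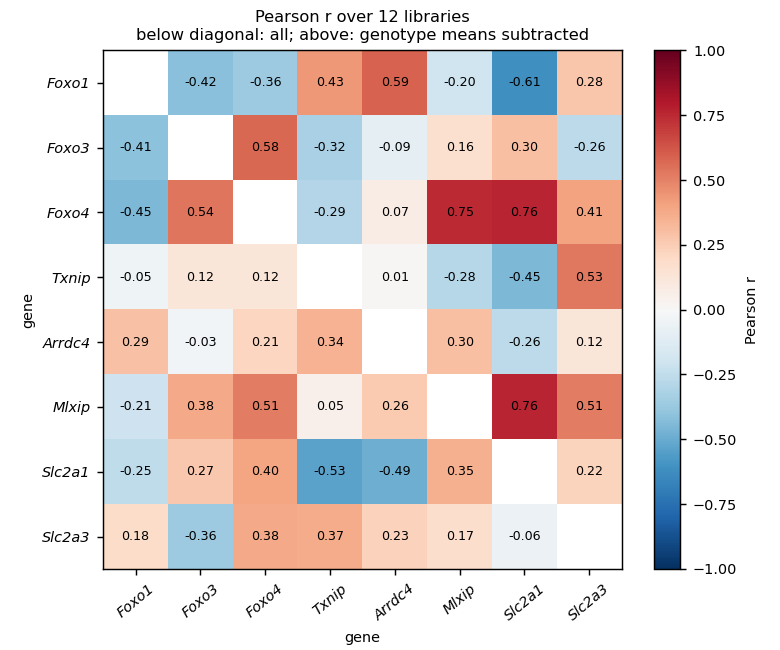
Pearson r of log2 RPKM between members over the 12 libraries, below the diagonal as deposited and above it with genotype means subtracted; colour runs from blue at -1 to red at 1. Txnip and Arrdc4 go from 0.34 to 0.01 once genotype means are subtracted, and Txnip and Slc2a1 stay negative (-0.53 and -0.45).

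The genes most like each member over the same 12 libraries are given as a description, since they were picked from the top of a ranking of 15477. For Txnip they were Ssh3 (r = 0.82), Klf10 (0.82) and RP23-336O18.1 (0.80). For Arrdc4 they were Sdr42e1 (0.89), Rnaseh2b (0.87) and Thtpa (0.86). For Foxo1 they were Pla2g15 (0.89), Noc4l (0.88) and Ppapdc2 (0.87). For Foxo3 they were Osbpl2 (0.92), Ppp1r13b (0.90) and Mospd1 (0.89), and for Foxo4 Med16 (0.96), Aaas (0.94) and Csrp2bp (0.94). For Mlxip they were Mib1 (0.92), Alcam (0.90) and Thsd1 (0.88). For Slc2a1 they were Phf20-ps (0.92), Tango2 (0.85) and Fkbp1a (0.84), and for Slc2a3 Slc35e3 (0.96), RP23-153H17.5 (0.96) and Hibadh (0.94). Members themselves were left out of this choice, as were provisional names such as Gm with digits or those ending in Rik. The best rank of one member for another was that of Foxo4 for Foxo3, 639th.

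Genes that FOXO factors are known to drive lay on both sides of wild type. Of 30 such genes, 26 were tested, and 0 passed limma's adjusted threshold in any comparison. Against wild type, 15 were higher and 11 lower for Nras (median 0.04), 12 and 14 for Tet2 (median -0.03), and 16 and 10 for compound mutants (median 0.07), on the log2 scale. At an unadjusted p under 0.05, 3, 1 and 2 of the 26 were higher, beside 3.19%, 1.82% and 3.36% of all genes, and 0 were lower. Prdx3, a mitochondrial peroxidase, stood at 14.9 ± 2.77 RPKM in wild type and 28.1 ± 6.47 in compound mutants (log2 difference 0.91 ± 0.24, adjusted p = 0.726). Sod2, the mitochondrial superoxide dismutase, stood at 11.2 ± 1.32 RPKM in wild type and 17.0 ± 2.48 in Tet2 mutants (0.60 ± 0.19, adjusted p = 1).

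Upstream of the FOXO factors, 26 of 28 genes of PI3K-AKT signalling were tested and 0 passed. There were 11 higher and 15 lower in Nras, 14 and 12 in Tet2, and 9 and 17 in compound mutants, with medians of -0.03, 0.02 and -0.08. At an unadjusted p under 0.05, 2 were lower for Nras, 0 for Tet2 and 2 for compound mutants, where 2.42%, 1.54% and 3.06% of all genes were. Pik3cd, a catalytic subunit of PI3-kinase found mainly in blood cells, stood at 9.27 ± 2.80 RPKM in wild type and 8.96 ± 2.17 in Tet2 mutants. It stood at 5.02 ± 1.27 in Nras and 4.86 ± 0.728 in compound mutants. The Nras allele difference of Pik3cd was -0.87 ± 0.20 (limma, adjusted p = 0.295). Pik3r1, a regulatory subunit, had an Nras allele difference of -0.31 ± 0.09 (adjusted p = 0.452), and Akt1 a Tet2 allele difference of -0.24 ± 0.09 (adjusted p = 0.963).

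Around Mlxip, 10 of 12 genes of the MondoA and MYC network were tested, with 4, 5 and 5 above wild type in Nras, Tet2 and compound mutants, and 0 passed. Mycn had an Nras allele difference of -0.43 ± 0.16 (adjusted p = 0.556). Myc stood at 7.07 ± 1.67 RPKM in wild type and 5.0 ± 0.880 in compound mutants (-0.49 ± 0.23, adjusted p = 0.767). Mga, a repressor of the same family, had a Tet2 allele difference of 0.17 ± 0.08 (adjusted p = 0.963).

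Among the other alpha-arrestins, 3 of 4 were tested with 0 passing. The number above wild type was 2 in Nras mutants (median 0.08), 3 in Tet2 mutants (median 0.65) and 3 in compound mutants (median 0.22). At an unadjusted p under 0.05, 1 was higher in Tet2 mutants, where 1.82% of all genes were, and 0 in the others. Arrdc3 stood at 4.39 ± 0.252 RPKM in wild type and 7.04 ± 1.89 in Tet2 mutants (0.65 ± 0.29; limma, unadjusted p = 0.0478, adjusted p = 1). Arrdc2 stood at 3.62 ± 2.53 and 8.31 ± 2.24 RPKM in the same groups (1.47 ± 0.75, adjusted p = 1). Arrdc1 had a Tet2 allele difference of 0.41 ± 0.27 (adjusted p = 0.963).

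In the thioredoxin system, the redox partner of TXNIP, 12 of 13 genes were tested. The medians against wild type were -0.06, 0.09 and 0.10 in Nras, Tet2 and compound mutants, and 0 passed. Besides Prdx3, Prdx1 had a Tet2 allele difference of 0.48 ± 0.21 (adjusted p = 0.963) and Prdx5 a compound difference of -0.94 ± 0.48 (adjusted p = 0.775). Of 12 genes for TXNIP turnover (ubiquitin ligases and AMP kinase subunits), all were tested, 3 were higher and 9 lower in Nras mutants (median -0.13), and 0 passed. In Tet2 and in compound mutants 6 were higher and 6 lower (medians -0.04 and 0.01). The ligase Wwp2 had a compound difference of -0.48 ± 0.14 (adjusted p = 0.754). Nedd4 had an Nras allele difference of -0.18 ± 0.06 (adjusted p = 0.503), and the kinase subunit Prkaa1 a compound difference of 0.45 ± 0.19 (adjusted p = 0.760).

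Besides Slc2a1 and Slc2a3, 13 further hexose transporters were listed, of which 2, Slc2a9 and Slc2a10, passed the filter on low values. Slc2a9 stood at 1.29 ± 0.300 RPKM in wild type and 0.916 ± 0.470 in Nras mutants (adjusted p = 0.884). Slc2a10 stood at 1.14 ± 1.08 RPKM in wild type and 0.876 ± 1.24 in Tet2 mutants (adjusted p = 1). Of the hexokinases, which trap glucose in the cell, 4 of 6 were tested and 0 passed. The mean of Hk3 was 4.07 ± 1.16 RPKM for wild type, 1.58 ± 0.618 for Nras, 2.74 ± 0.573 for Tet2 and 1.72 ± 0.356 for compound mutants (Nras allele -1.04 ± 0.28, adjusted p = 0.384). Hk1 had a Tet2 allele difference of -0.22 ± 0.13 (adjusted p = 0.963), and Adpgk an Nras difference of 1.10 ± 0.82 (adjusted p = 0.870).

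Cell-cycle genes were read beside Txnip because FOXO factors and TXNIP are both tied to quiescence. Of 12 genes, all were above wild type in Nras mutants (median 0.80) and 11 in compound mutants (median 0.76), but 4 in Tet2 mutants (median -0.19). Over all genes, 51.3%, 51.6% and 54.2% were above, in that order. At an unadjusted limma p under 0.05, 4 were higher in Nras and 5 in compound mutants, beside 3.19% and 3.36% of all genes. In Tet2 mutants 0 were higher and 1 lower at that level, beside 1.82% and 1.54%. Top2a passed for the Nras allele (0.76 ± 0.09, limma, adjusted p = 0.0376), the 1 gene of these lists to do so, where 0.0323% of all genes passed. Mki67 (0.93 ± 0.13, adjusted p = 0.0565) and Kif11 (0.85 ± 0.12, adjusted p = 0.0630) did not. The mean of Mki67 was 77.0 ± 19.5 RPKM for wild type, 134 ± 6.34 for Nras, 75.4 ± 7.86 for Tet2 and 153 ± 19.3 for compound mutants. In Tet2 mutants, Txnip was above every wild-type library. Mki67, at 84.3, 69.3 and 72.5 RPKM there, lay within the wild-type span of 54.9 to 91.6. Top2a, at 24.6, 24.9 and 24.8 RPKM, also lay within its wild-type span of 21.4 to 25.3. Kif11 went the other way: its Tet2 libraries (19.4, 22.4 and 20.8 RPKM) lay above those of wild type (18.3, 17 and 14.6). Such a separation was shown by 5.24% of genes.

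The markers of the gate were read as a check of the sort. All 10 stem-cell markers had a median of at least 1 RPKM, and their summed level was 207 to 245 RPKM in wild type, 184 to 233 in Nras, 239 to 247 in Tet2 and 197 to 230 in compound mutants. Cd48, which the sort excluded, had a median at 0 reads and at most 1.28 RPKM. Flt3 and Cd34, which mark progenitors and were listed beside it, were detected in every library, with medians of 8.74 and 22.4 RPKM. Summed levels reached at most 8.63 RPKM for granulocyte markers (5 of 7 in the table), 22.8 for erythroid (5 of 7), 11.1 for T and NK (4 of 6), 7.91 for B (2 of 6), 4.77 for monocyte and macrophage (2 of 5) and 5.16 for endothelial and stromal markers (2 of 6). Some of these sums did not overlap with wild type in 1 genotype, which was not tested. Among single genes, 5.24% in Tet2 and 6.09% in compound mutants were higher than wild type without overlap. The sums also rest on few genes at low levels, and Hba-a1, Hba-a2 and Klf1 fell to 0 reads in some libraries. Erythroid sums were 3.71 to 12.0 RPKM in Tet2 mutants, below the 13.9 to 17.5 of wild type. Endothelial and stromal sums were 0.443 to 3.38 in Nras mutants against 4.62 to 4.86 in wild type. B sums were 3.56 to 4.02 in compound mutants against 4.52 to 6.68 in wild type. The remaining sums of the lists named so far overlapped with wild type. Among the granulocyte markers Elane and Ngp had a median at 0 reads, and S100a9 a median of 1.39 RPKM. Summed megakaryocyte markers (4 of 4) were 8.77 to 20.51 RPKM in wild type, 14.2 to 30.6 in Nras, 10.2 to 17.4 in Tet2 and 20.9 to 25.4 in compound mutants. The compound sums thus lay just above those of wild type, without overlap. The part of any of these cell types in the member values was not tested. Libraries held 19205045 to 36890942 reads in genes, and the members had from 450 (Foxo4) to 46570 (Txnip) reads, none at 0.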

How the data were processed

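Total RNA of 12 libraries (4 genotypes, 3 each) had been sequenced, and the single deposited table holds log2 RPKM, an other unit than counts. The submitters' processing notes name CASAVA 1.8.2, TopHat2, edgeR and the mm10 build, with no role or order. Values matched whole reads with a prior of 0.25 reads for 100% of 18546 genes (tolerance 0.001 reads), which gave the depth. Recovered gene lengths equalled the summed length of all GENCODE M21 transcripts for 67.7% of 17264 matched genes, so levels between genes were recomputed over merged exons, a step added after seeing the data.

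Genes reaching 1 RPKM in 3 or more libraries were kept (15478 tested, 3068 left out). Their deposited log2 values entered limma 3.58.1 (R 4.3.3), with a variance trend and 8 residual degrees of freedom. Tests were two-sided with Benjamini-Hochberg adjustment, threshold 0.05, in 8 comparisons. The script was tested on simulated data. The members, context lists, markers and comparisons were chosen with earlier results of these data known. Named were all members, the 3 genes most like each, the 3 smallest unadjusted p of each list, and close relatives; 1 gene that this rule names is not reported here. Alternatives were other filters, scalings, weights, sex (read from sex-linked genes), a replicate block, voom, and leaving out each library. Intervals and floors cover counting error or library spread only.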

Additional observations from a re-analysis of the deposited data

How the results depend on the processing

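Under 753 alternative values for 33 results on the members, 0 passed the adjusted threshold with limma (smallest adjusted p = 0.564), 726 kept their sign and 27 reversed it, in 12 results. Txnip against wild type was positive in 69 of 69, from 0.35 to 0.50 (log2) in Nras mutants (adjusted p 0.665 to 1), 0.43 to 0.67 in Tet2 mutants (0.641 to 1) and 0.30 to 0.54 in compound mutants (0.617 to 0.973).

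With library quality weights the reversed differences were -0.013 for Foxo3 and -0.027 for Slc2a3 in Nras, -0.023 for Foxo4 in Tet2 and -0.060 for Mlxip in compound mutants. Dropping wild type 1 together with Nras 2, whose tables held the most zeros, gave -0.051 for Foxo4 and -0.15 for Slc2a3 in Nras, -0.087 for Foxo4 in Tet2, and -0.16 for Foxo4, -0.071 for Mlxip and -0.051 for Slc2a3 in compound mutants. With sex as a covariate Slc2a3 in Tet2 mutants stood at 0.071. Leaving out 1 library at a time gave ranges of -0.78 to 0.12 for Foxo1 in Tet2 mutants, -0.065 to 0.15 and -0.14 to 0.039 for Foxo3 in Nras and compound mutants, and -0.12 to 0.62, -0.087 to 0.65 and -0.16 to 0.58 for Foxo4 in Nras, Tet2 and compound mutants. The same gave -0.071 to 0.15 for Mlxip in compound mutants, -0.17 to 0.32, -0.38 to 0.15 and -0.051 to 0.44 for Slc2a3 in Nras, Tet2 and compound mutants, and for Txnip -0.13 to 0.11 in compound against Nras and -0.24 to 0.014 in compound against Tet2. The cause was not tested.

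Counts of genes called were small and moved with the setting. Nras against wild type called 1 gene, 3 with log2(RPKM + 0.5), no variance trend or without the 2 libraries, and 0 with quantile normalization, only 2 groups in the fit or voom. Tet2 against wild type called 1, 2 with no trend or without the 2 libraries, and 0 with log2(RPKM + 0.5), quantile normalization, 2 groups or voom. Compound against wild type called 1, 3 with no trend, 2 without the 2 libraries, and 0 under those same 4. Compound against Nras called 0, 2 with 2 groups, 3 with no trend and 1 without the 2 libraries. Compound against Tet2 called 1, 4 with 2 groups, 3 with no trend, 8 without the 2 libraries, and 0 with sex or voom. The interaction called 2, and 0 with log2(RPKM + 0.5), quantile normalization or voom. The Nras allele called 5, 8 with median-centred libraries, 1 with quantile normalization, 11 with weights and 20 with voom. The Tet2 allele called 0, and 1 with no trend. Leaving out 1 library at a time gave 1 to 18 for Nras, 1 to 20 for Tet2 and 1 to 17 for compound mutants against wild type, 0 to 12 and 0 to 6 for compound against Nras and Tet2, 0 to 6 for the interaction, 2 to 17 for the Nras allele and 0 to 7 for the Tet2 allele. The highest counts came without wild-type replicate 2 (18, 20, 17, 6 and 7 for Nras, Tet2, compound, interaction and Tet2 allele), Nras replicate 3 (18, 12 and 17 for Nras, compound against Nras and Nras allele) and compound replicate 3 (6 and 6 for compound against Tet2 and interaction).

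Whether the replicate numbers pair the libraries could not be settled with 3 libraries per genotype. The 18 same-numbered pairs had deviations that correlated at -0.13 to 0.14, with 2 over 0.1 (mean 0.029). The 36 other pairs ran from -0.14 to 0.16, with 1 over 0.1 (mean -0.014). Replicate number also went with sex, as read from sex-linked genes. Replicate 1 was male and replicate 2 female in every genotype, and replicate 3 was female except in Tet2 mutants. With the replicate block the member differences were the same, since each number occurs once per genotype, and the smallest adjusted p of a member was 0.707. The block gave 0 genes for compound against Tet2, 0 for the interaction and 7 for the Nras allele. Foxo4 and Foxo1 had the fewest reads, down to 450 and 531 in a library.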

Other observations

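The paired half-sites upstream of Txnip occur in 14 genes of the RefSeq promoter table, of which 8 besides Txnip were tested here. Of these 8, 4 were above wild type in all 3 mutant genotypes and 2 were below in all 3. Over all genes, 51.3% were above wild type in Nras, 54.2% in Tet2 and 51.6% in compound mutants, each taken singly. The 3 comparisons share their wild-type libraries, and the share of all genes above in all 3 was not counted. These counts are therefore no result about the motif. The median levels of the 4 higher genes ran from 0.698 to 12.7 RPKM, so some lay near the filter. Fnip1, which encodes a partner of folliculin in nutrient sensing, was singled out after its values were seen. It stood at 7.71, 12.1 and 11.8 RPKM in wild-type replicates 1, 2 and 3, and at 11.6, 16.5 and 12.8 in Nras mutants. Tet2 mutants gave 10.6, 15.9 and 15.7, and compound mutants 12.7, 15.8 and 14.7 RPKM. Its log2 differences from wild type were 0.39, 0.42 and 0.48 (limma, adjusted p = 0.870, 1 and 0.767), and its r with Txnip over the 12 libraries was 0.74.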
